A study of Mus musculus with 3 samples.

Results

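Forkhead transcription factors share a winged-helix DNA-binding domain, the forkhead box, and are grouped by sequence into lettered subfamilies. FOXA proteins open chromatin in endoderm and in the midline, FOXC and FOXF proteins pattern mesoderm and vessels, and several FOXB and FOXD proteins act in the neural plate. FOXO proteins are moved out of the nucleus when insulin or growth factors activate AKT. Some FOXP and FOXN proteins, the FOXK proteins, FOXJ2 and FOXJ3 are expressed more widely. The left–right organizer (LRO), a ciliated pit at the tip of the notochord, depends on another member of the family, Foxj1, which was left out here. The genes described were all those named Fox with a subfamily letter from a to s and a number, without Foxj1 and without names of antisense or RIKEN transcripts. There were 43 such genes among 31054 features of the count matrices, on 16 chromosomes.

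Expression was measured by droplet single-cell RNA sequencing in 3 wild-type male mouse embryos of the cross C57BL/6 x 129 SvEv, collected around the time of the first somites, with extraembryonic tissue dissected away and 1 library per embryo. No embryo was mutant or treated, so every comparison was between cell lineages, with the embryo as the replicate. After quality control 5795, 7956 and 7844 cells remained in embryos 1, 2 and 3, which is 21595 in all, with median depths of 27635, 14615 and 16332.5 unique molecular identifiers (UMIs) per cell. Levels are given as CPM, the UMIs of a gene per 1000000 UMIs of all genes, summed over the cells of 1 lineage in 1 embryo. Reads came from 1 end of each transcript, so that transcript length does not scale these levels.

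Cells were assigned to 19 lineages by UMIs of marker genes, none of them a forkhead gene, and each lineage is called by its marker list, for example LRO-like. The gate placed 14476 cells, and the other 7119 cells (33.0%) entered only the sums against which a lineage was compared. Definitive endoderm-like cells (754) were also divided into foregut-like (79) and hindgut-like (509) cells, by which marker list had more genes with a UMI. The foregut list was Hhex, Otx2, Pyy and Nkx2-1, and the hindgut list Cdx1, Cdx2, Cdx4 and Trh. Trh is also a definitive endoderm marker and had a UMI in 98.4% of those cells. A cell with Trh and no Cdx gene could thus be called hindgut-like. The scarcest lineages were neural border-like cells (54), primordial germ cell (PGC)-like cells (77), axial mesoderm-like cells (160) and LRO-like cells (218). Embryo 1 held 2 erythroid-like cells, so values of that lineage rest on embryos 2 and 3. Extraembryonic endoderm-like cells numbered 2502 although that tissue had been trimmed. No forkhead gene helped to place a cell, but lineages and levels come from the same libraries. A level summed over a lineage cannot tell many cells with few UMIs from few cells with many, so shares of cells are given beside the main levels.

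The promoters of the 3 Foxa genes are shown because these genes were higher together in definitive endoderm-like cells, and Foxa1 and Foxa3 had the widest ratio of the highest to the median lineage among the forkhead genes. Each run is the 250 bases before an annotated transcription start, read 5′ to 3′ on the gene's own strand, from RefSeq on build GRCm38.p6. All 3 genes lie on the minus strand. Foxa1 spans chr12:57540628-57546916 and its window chr12:57546112-57546361, which lies inside that span, so its start is not the outermost one. Foxa2 spans chr2:148042877-148046969, and the window of its outermost start is chr2:148046970-148047219. Windows of its inner starts, also without the motif marked below, are not shown. Foxa3 spans chr7:19013284-19023538, with its window at chr7:19023540-19023789. Capitals mark the forkhead motif TGTTTAC or its other strand GTAAACA.
Foxa1: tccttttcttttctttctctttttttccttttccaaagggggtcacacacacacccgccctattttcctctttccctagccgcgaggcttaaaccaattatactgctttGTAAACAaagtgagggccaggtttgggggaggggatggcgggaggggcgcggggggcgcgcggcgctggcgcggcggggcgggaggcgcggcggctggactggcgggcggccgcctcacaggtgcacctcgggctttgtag
Foxa2: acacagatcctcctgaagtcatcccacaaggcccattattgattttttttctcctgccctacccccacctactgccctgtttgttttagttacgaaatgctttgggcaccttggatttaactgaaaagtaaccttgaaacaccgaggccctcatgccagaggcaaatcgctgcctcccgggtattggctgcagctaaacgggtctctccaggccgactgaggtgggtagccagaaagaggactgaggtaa
Foxa3: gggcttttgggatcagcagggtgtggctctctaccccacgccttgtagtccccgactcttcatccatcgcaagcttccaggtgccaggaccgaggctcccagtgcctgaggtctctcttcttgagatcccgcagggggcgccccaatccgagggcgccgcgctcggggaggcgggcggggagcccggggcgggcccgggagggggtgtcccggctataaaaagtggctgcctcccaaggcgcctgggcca

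The motif was present in the Foxa1 window, with its first base at −141 from the start. A promoter could be looked up for 28 of the 43 genes, and 1 of the 28 held the motif. Over all 32851 promoters of that length 3.17% held it, with both strands counted. The match is a run of letters, and no binding was measured.

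Most forkhead genes were transcribed somewhere in these embryos. There were 34 genes with at least 50 UMIs, 21 with at least 1000 and 14 with at least 5000, and the 43 genes had 217199 UMIs together. At least 1 of them had a UMI in 98.3% of cells. The median cell showed 5 forkhead genes, or 2 after each cell was thinned to 5000 UMIs, and the most in any cell was 20. Foxp1, a repressor that acts in heart, lung and neurons, gave 19.4% of these UMIs, and Foxn3, a repressor linked to cell cycle checkpoints, gave 14.8%. Together with Foxo4, Foxf1 and Foxb1 they made up 55.2%. Over whole embryos Foxp1 was at 82.3 ± 17.2 CPM (SD, n = 3), Foxn3 at 63.7 ± 4.70 CPM, Foxo4 at 33.3 ± 6.27 CPM, Foxf1 at 29.9 ± 0.769 CPM and Foxb1 at 27.5 ± 6.71 CPM.

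Each lineage was compared with all other cells of the same embryos, by edgeR's quasi-likelihood test on UMIs summed per embryo, and a gene was called at a Benjamini-Hochberg adjusted p under 0.05 over all features tested. The p-values measure the spread between 3 embryos. Sums of the same embryo were not paired in this fit, and counts with the embryo as a block are given at the end. Of 630 gene-lineage pairs tested, 74 were higher in the lineage and 153 were lower, where over all features 9.2% of pairs were higher and 11.9% lower. In 224 of the 227 calls every embryo moved the same way, and in 221 the lineage's values did not overlap those of the other cells. These calls had already been picked by the test, so both counts are largely fixed by that choice. They were not made over all features, and for erythroid-like cells they rest on the lineage's sums in embryos 2 and 3. There were 37 forkhead genes deep enough to test in at least 1 lineage, and 27 of them were higher in 1 lineage or more. Among the genes called in none were Foxd3, Foxe1, Foxj3, Foxn4 and Foxr1. Across 19 lineages the highest level was at least 5 times the median lineage for 20 of 34 genes, from 2 to 5 times for 7 and under 2 times for 7. For 8 genes (Foxa1, Foxa3, Foxd4, Foxl2, Foxc2, Foxo4, Foxo1 and Foxn2) every embryo of the highest lineage lay above every embryo of the next. These counts were not made over all features, and some of the 20 ratios rest on medians near the floor. Foxi2, Foxn4 and Foxi3 had medians of 0.0974, 0.0895 and 0.170 CPM. Their highest means were 1.24, 0.850 and 1.02 CPM, and 18 lineages overlapped each.

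**Figure D1:**
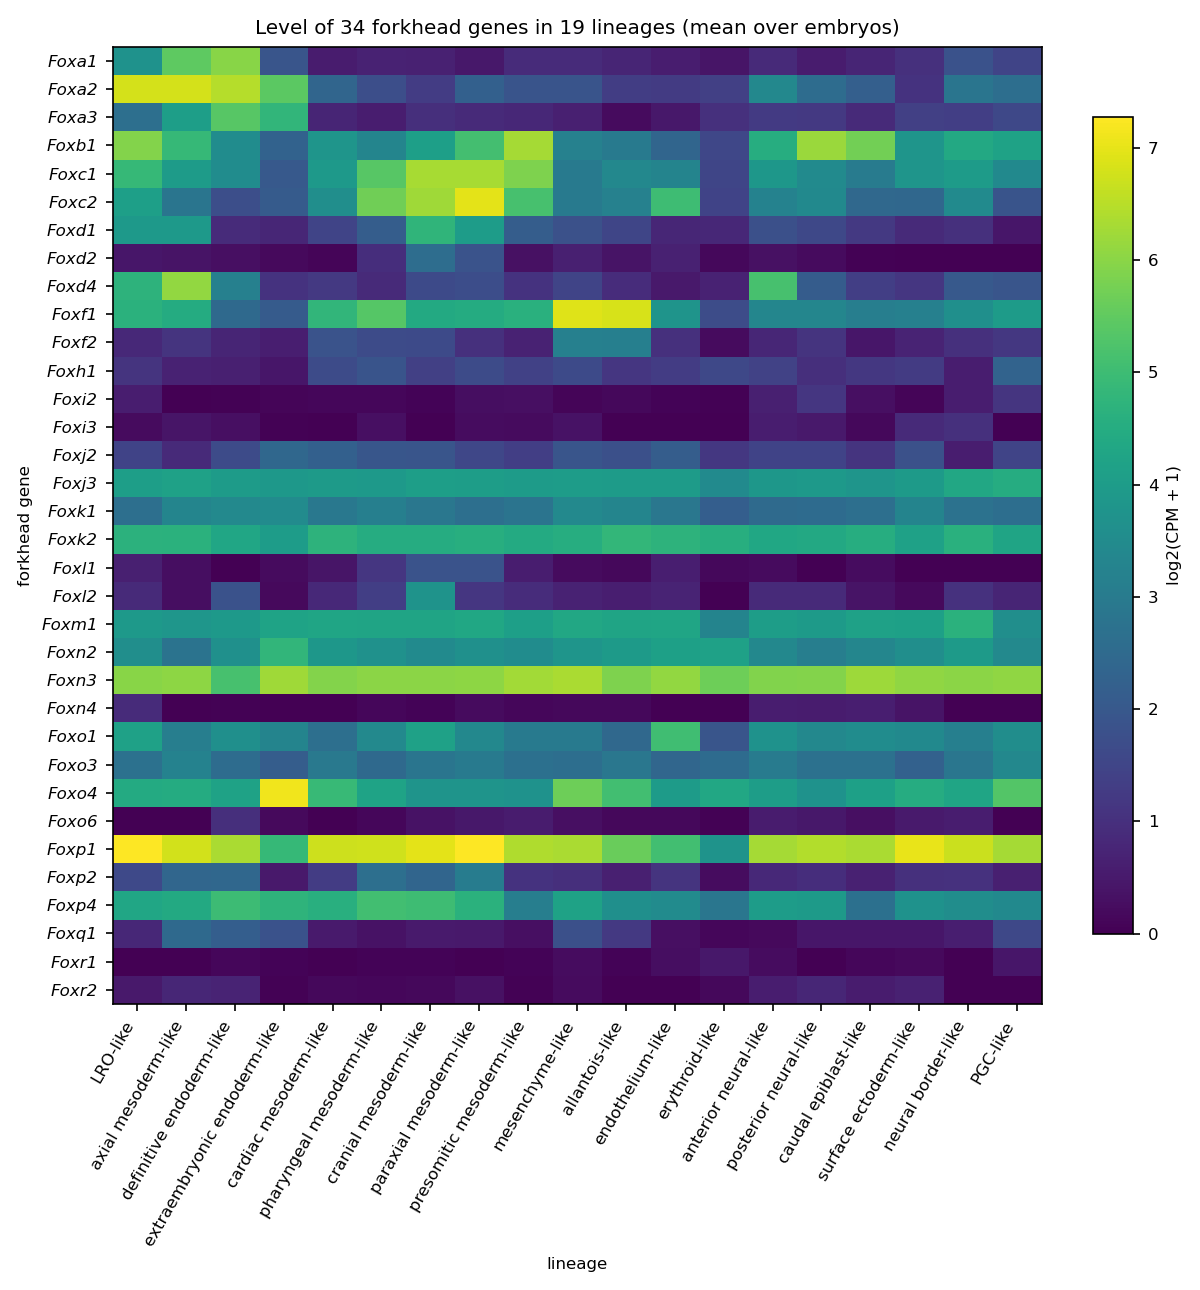
Mean level of 34 forkhead genes (rows, those with at least 50 UMIs) in 19 lineages (columns), as log2(CPM + 1) over the embryos (n = 3, n = 2 for erythroid-like cells), with lighter colours for higher levels. Foxa genes are light in the endoderm and midline columns and Foxc and Foxf genes in different mesoderm columns, while Foxp1 and Foxn3 are light in nearly all columns.

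The summed level of the 43 genes was highest in LRO-like cells, at 656 ± 93.9 CPM (SD, n = 3), and close to that in paraxial mesoderm-like cells (644 ± 52.5 CPM) and axial mesoderm-like cells (637 ± 51.1 CPM). It was 313 ± 51.5 CPM in endothelium-like cells and 175 ± 3.80 CPM in erythroid-like cells (n = 2), the lowest of the 19 lineages. From 15 to 17 of the genes were at 10 CPM or more in LRO-like cells and from 5 to 6 in erythroid-like cells. The share of 19 lower calls among 36 genes in erythroid-like cells compares with 32.3% of all features called lower there, and the median log2 difference was −2.11 for the forkhead genes and −0.28 for all features. In PGC-like cells these medians were −0.61 and −0.11.

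Foxa1, Foxa2 and Foxa3 encode pioneer factors of the gut, liver and notochord. In definitive endoderm-like cells 8 of 32 forkhead genes were higher and 9 lower, with 15.5% of all features higher and 15.7% lower. Foxa1 reached 74.6, 56.3 and 56.0 CPM in embryos 1, 2 and 3, and 76.9%, 57.3% and 51.2% of these cells had a Foxa1 UMI. In erythroid-like cells, taken as a type that should lack the gene, that share was 0.335% and 0.299% in embryos 2 and 3, without thinning. Their median depth was 15258 UMIs against 19979 in definitive endoderm-like cells. After thinning to equal depth 30.9%, 26.3% and 21.3% of definitive endoderm-like cells still showed Foxa1. The log2 difference from other cells was 4.90 (SE 0.19, adjusted p = 7.58e-07). Foxa3, at 37.0, 47.9 and 37.2 CPM, was higher by 3.26 (SE 0.22, adjusted p = 1.08e-05), and Foxa2, at 96.2, 78.3 and 87.3 CPM, by 2.89 (SE 0.13, adjusted p = 2.1e-06). All 3 Foxa calls and that of Foxp4 (0.94, SE 0.15) were kept when any 1 embryo was left out. Foxq1, Foxo6, Foxp2 and Foxl2 were also higher, by 1.93, 1.88, 1.28 and 1.19, and each lost its call without at least 1 embryo. Without embryo 3 the adjusted p of these 4 genes was 0.0714, 0.0672, 0.0860 and 0.186, and without embryo 2 it was 0.117, 0.0923 and 0.0536 for Foxq1, Foxo6 and Foxl2. Foxo6, at 0.959 ± 0.417 CPM, remained a rare transcript even there. Among the lower genes Foxn3 fell by 0.92 (SE 0.09, adjusted p = 8.73e-05) to 35.0 ± 1.03 CPM, its lowest level in any lineage.

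Axial mesoderm-like cells, which carry notochord markers such as Shh and Chrd, had 6 of 32 forkhead genes higher and 3 lower, against 4.78% and 4.01% of all features. Foxd4, a neural plate regulator, was at 82.2, 66.8 and 52.0 CPM, its highest level among the lineages, and was higher than in other cells by 3.89 (log2, SE 0.17, adjusted p = 2.44e-07). Foxa1 was at 52.6, 38.4 and 39.2 CPM (3.36, SE 0.29, adjusted p = 4.58e-05) and Foxa2 at 119, 97.9 and 117 CPM (2.94, SE 0.14, adjusted p = 2.98e-07). These 3 calls held without each embryo. Foxq1 (2.17), Foxd1 (1.86) and Foxa3 (1.51) were higher in the 3 embryos but rest on few UMIs, since Foxq1 had 4, 9 and 3 and Foxa3 had 33, 23 and 6. Without embryo 2 the adjusted p was 0.300 for Foxq1 and 0.0868 for Foxa3, without embryo 3 it was 0.0893 for Foxq1 and 0.0633 for Foxd1, and without embryo 1 it was 0.195 for Foxa3. Markers of definitive endoderm were also present in axial mesoderm-like cells, where that 6-gene list summed to between 374.7 and 474.3 CPM compared with 137.8 to 187.7 CPM in LRO-like cells. Their part in the Foxa levels was not tested. The 6 anterior neural markers summed to between 117.7 and 156.5 CPM in axial mesoderm-like cells and between 530.8 and 613.7 CPM in anterior neural-like cells. At least 3 of them were held by 8.1% of axial mesoderm-like cells. The part of anterior neural markers in the Foxd4 level was not tested.

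LRO-like cells had 6 of 33 forkhead genes higher than other cells and 1 lower, with 11.5% and 6.23% of all features. The median log2 difference was −0.08 for the forkhead genes and −0.06 for all features. Foxa2 was at 147, 114 and 74.0 CPM, and 87.7%, 80.6% and 74.4% of LRO-like cells had a Foxa2 UMI, with 1.68% and 2.99% in erythroid-like cells of embryos 2 and 3. Foxa2 was higher than in other cells by 2.95 (log2, SE 0.20, adjusted p = 3.83e-06), and its values did not overlap theirs. Foxd4 (2.37, SE 0.18), Foxd1 (1.89, SE 0.27) and Foxb1 (1.05, SE 0.18) were higher too, with adjusted p of 7.38e-06, 0.000912 and 0.0028, and kept the call without each embryo. The call of Foxa1 (1.34, adjusted p = 0.0399) and that of Foxp1 (0.82, adjusted p = 0.00473) were lost without embryo 2, at adjusted p of 0.306 and 0.0581. Foxo4 was lower, at −0.77 (adjusted p = 0.0358), a call lost without embryo 2 (adjusted p = 0.238) or embryo 3 (adjusted p = 0.0601). Foxp1 had its highest mean in LRO-like cells, at 182, 149 and 130 CPM, next to 152 ± 18.2 CPM in paraxial mesoderm-like cells, and these lineages overlapped.

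The LRO forms within the notochordal lineage, and the direct comparison asked which forkhead genes set its cells apart from the axial mesoderm-like ones. Of 20 forkhead genes tested 4 were higher in LRO-like cells and 3 lower, where 6.21% and 2.67% of all features were called. For Foxa2 the log2 difference was −0.03 with a 95% interval from −0.45 to 0.38, and for Foxd1 it was 0.02 with an interval from −0.67 to 0.70. Foxa1 was at 13.8, 16.5 and 5.87 CPM in LRO-like cells, so that every embryo lay below every axial mesoderm-like value, a difference of −1.96 (SE 0.29, adjusted p = 0.000354). Foxd4, at 22.9, 26.7 and 25.8 CPM, was lower by the same test, at −1.45 (SE 0.19, adjusted p = 0.00013). Of the 7 calls these 2 were kept without each embryo, and with cells thinned to 5000 UMIs Foxd4 was still called (−1.08, adjusted p = 0.0291) and Foxa1 was not (−1.08, adjusted p = 0.0747).

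Foxa3 (−1.57, SE 0.42, adjusted p = 0.0285) was also lower in LRO-like cells, but its values overlapped, at 6.63, 3.43 and 5.87 CPM against 20.4, 21.04 and 5.89 CPM. Foxb1, at 72.4, 57.6 and 50.1 CPM in LRO-like and 35.2, 19.2 and 30.4 CPM in axial mesoderm-like cells, was higher by 1.03 (SE 0.21, adjusted p = 0.00532). Foxc2 (1.40), Foxc1 (0.87) and Foxp1 (0.46) were higher by the same test, at adjusted p of 0.0157, 0.0305 and 0.048. Leaving out embryo 2 ended the calls of Foxa3, Foxb1, Foxc1, Foxc2 and Foxp1, with adjusted p of 0.430, 0.0955, 0.282, 0.0756 and 0.347. Foxc1 and Foxp1 also lost it without embryo 1 (0.112 and 0.308) and Foxc2 without embryo 3 (0.125). Foxc2 in particular rested on 30, 18 and 53 UMIs in LRO-like and 10, 7 and 6 in axial mesoderm-like cells. Markers of other mesoderm moved the same way. The 6 paraxial markers summed to between 335 and 463 CPM in LRO-like and between 128 and 181 CPM in the axial lineage, and the 6 presomitic markers to between 262 and 437 against 113 to 152 CPM. Of LRO-like cells 33.5% held at least 3 paraxial and 43.6% at least 3 presomitic markers, and in the axial lineage 10.6% and 16.3% did. Caudal epiblast markers summed to between 770 and 1175 CPM in LRO-like and between 668 and 755 CPM in axial mesoderm-like cells. At least 3 of them were held by 61.9% and 26.9% of these cells. T is in both the caudal epiblast and the axial list. The 6 anterior neural markers summed to between 64.6 and 89.8 CPM in LRO-like and between 117.7 and 156.5 CPM in axial mesoderm-like cells. At least 3 of these were held by 7.8% and 8.1% of the cells. The LRO markers summed to between 68.6 and 171 CPM in the axial lineage. Axial markers overlapped far more, at 765 to 1419 CPM in LRO-like and 1034 to 1292 CPM in axial mesoderm-like cells. At least 3 axial markers were held by 86.2% of LRO-like cells. The part of these markers in the differences was not tested.

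**Figure D2:**
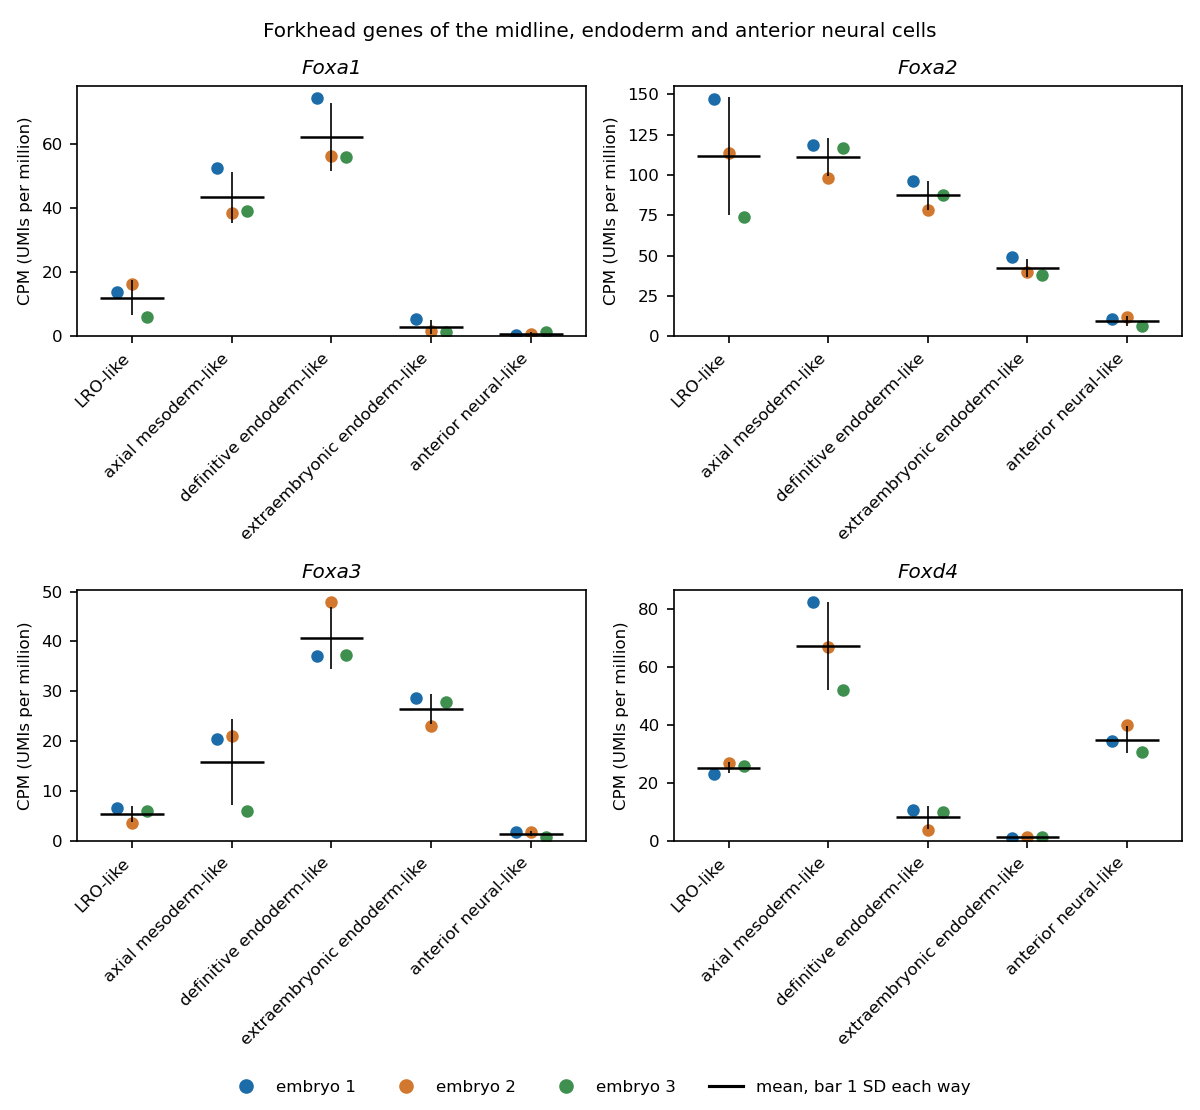
CPM of Foxa1, Foxa2, Foxa3 and Foxd4 in LRO-like, axial mesoderm-like, definitive endoderm-like, extraembryonic endoderm-like and anterior neural-like cells, with 1 point per embryo and a line at the mean (n = 3, error bar SD). Foxa2 points of LRO-like cells (74.0 to 147 CPM) spread around those of the axial lineage, whereas Foxa1 is highest in definitive endoderm-like cells and Foxd4 in axial mesoderm-like cells.

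The proportions of the Foxa transcripts differed among these lineages. The ratio of Foxa1 to Foxa2 was 0.712 ± 0.0674 (SD, n = 3) in definitive endoderm-like cells, 0.390 ± 0.0533 in the axial lineage, 0.106 ± 0.0343 in LRO-like cells and 0.0622 ± 0.0396 in extraembryonic endoderm-like cells. Foxa3 relative to Foxa2 was highest in extraembryonic endoderm-like cells, at 0.632 ± 0.0855, and 0.474 ± 0.121 in definitive endoderm-like cells. In 48.6% ± 13.6 of definitive endoderm-like cells UMIs of both Foxa1 and Foxa2 were found. UMIs of Foxa2 and Foxb1 were found together in 53.5% ± 4.34 of LRO-like cells. With cells thinned to 5000 UMIs these shares were 8.33% ± 3.80 and 15.7% ± 6.42. These ratios are descriptions and were not tested.

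Extraembryonic endoderm-like cells, marked by Ttr and apolipoproteins, had 10 of 32 forkhead genes higher and 17 lower, in a lineage where 33.7% of all features were higher and 37.4% lower. The median log2 difference was −1.23 over the forkhead genes and −0.09 over all features. Foxo4, a FOXO factor under AKT control, was at 138 CPM in each of the 3 embryos and had a UMI in 93.5%, 86.8% and 87.1% of these cells. Once cells were thinned to equal depth the shares were 52.4%, 50.4% and 50.7%. Its log2 difference from other cells was 2.96 (SE 0.07, adjusted p = 1.16e-08), and the next lineage, mesenchyme-like cells, had 49.5 ± 5.46 CPM. Erythroid-like cells, another lineage of the yolk sac, had Foxo4 at 19.8 and 19.3 CPM in embryos 2 and 3.

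Foxa3 (3.32, SE 0.18, adjusted p = 4.26e-07), Foxa2 (2.13, SE 0.14) and Foxn2 (1.44, SE 0.08, adjusted p = 5.13e-07) were higher in extraembryonic endoderm-like cells, and Foxn2 was at 27.1, 27.2 and 26.2 CPM, above every other lineage. Foxq1, Foxj2, Foxp4, Foxk1 and Foxn3 were higher by between 0.46 and 1.77. Of the 10 higher calls 9 were kept without each embryo, and the exception was Foxm1 (0.31), whose adjusted p was 0.120 without embryo 2 and 0.172 without embryo 3. Foxp1 was lower, at −1.44 (SE 0.14, adjusted p = 1.86e-05). This lineage had 9.91% of its cells among the top doublet scores of their libraries, where 6% of each library was so marked.

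Between the 2 endoderm lineages 9 of 23 forkhead genes were higher in definitive endoderm-like cells and 5 in extraembryonic endoderm-like cells, against 32.2% and 32.1% of all features. Foxa1 differed by 4.53 (log2, SE 0.32, adjusted p = 3.4e-07), at 56.0 to 74.6 CPM against 1.41 to 5.27 CPM. Foxo4 differed by −3.20 (SE 0.11, adjusted p = 1.79e-09), and Foxn2 and Foxn3 by −1.39 and −1.26. The Foxa2 and Foxa3 differences were smaller, at 0.88 (SE 0.11) and 0.44 (SE 0.13), and that of Foxa3 was not called without embryo 2 (adjusted p = 0.165) or with lineages set by the number of markers detected (adjusted p = 0.621). Foxl2 (3.93), Foxp2 (3.13), Foxd4 (2.67), Foxc1 (1.61), Foxp1 (1.37) and Foxb1 (1.31) were higher in definitive endoderm-like cells in each fit with an embryo left out, and Foxb1 was not with lineages set by the number of markers (adjusted p = 0.28). Foxj2 (−1.07) and Foxm1 (−0.44) were lower and lost the call without embryo 2 (adjusted p = 0.0527 and 0.165), Foxm1 also without embryo 3 (0.235). At least 3 extraembryonic endoderm markers were held by 33.7% of definitive endoderm-like cells. They summed to between 307 and 449 CPM there, against 16685 to 18971 CPM in extraembryonic endoderm-like cells. At least 3 definitive endoderm markers were held by 5.16% of extraembryonic endoderm-like cells. What this overlap adds to the differences was not tested.

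Within definitive endoderm-like cells the foregut-like and hindgut-like groups were compared. A hindgut-like cell needed no Cdx gene if it had Trh and no foregut marker, so these groups may not be the 2 ends of the gut. Of 17 forkhead genes 2 were higher in foregut-like cells, where 2.15% of all features were called higher, and 0 were lower by edgeR, with 2.39% of all features lower. The count of lower genes was 1 at an unadjusted p under 0.05 and 0 by DESeq2. Foxc1 was at 23.8, 14.1 and 24.0 CPM in foregut-like and 8.98, 4.26 and 7.09 CPM in hindgut-like cells, a difference of 1.56 (log2, SE 0.34, adjusted p = 0.0101). Foxp4 was at 43.8, 47.0 and 38.9 against 28.2, 27.0 and 18.5 CPM (0.84, SE 0.21, adjusted p = 0.0284). Values of both genes did not overlap between the groups, but they rest on as few as 8 and 13 UMIs in an embryo. Without embryo 1 or 3 the adjusted p of Foxc1 was 0.121 and 0.107, and that of Foxp4 was between 0.126 and 0.169 in the 3 fits with an embryo left out. With lineages set by the number of markers detected neither was called (adjusted p = 0.121 for Foxc1 and 0.171 for Foxp4), nor was Foxp4 with cells thinned to equal depth (adjusted p = 0.931). For Foxa1 the difference between the groups was 0.19 with a 95% interval from −0.21 to 0.59.

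Several forkhead genes had their highest mean in a mesoderm lineage. Foxc1 and Foxc2 encode close relatives needed for somites, vessels and the outflow tract, and their highest levels were in head and paraxial mesoderm. Of 33 forkhead genes 10 were higher in cranial mesoderm-like cells and 8 in paraxial mesoderm-like cells, against 3.19% and 4.41% of all features, and 5 and 6 were lower, against 5.66% and 8.89%. Over the genes tested the median log2 difference was 0.04 in both lineages, beside −0.03 and −0.01 over all features. The lineages shared markers. At least 3 paraxial markers were held by 32.3% of cranial mesoderm-like cells, and at least 3 cranial markers by 22.2% of paraxial mesoderm-like cells. What this overlap adds to the forkhead levels was not tested.

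Foxc2 was at 151, 113 and 108 CPM in paraxial mesoderm-like cells, its highest lineage, with UMIs in 94.0%, 83.0% and 83.3% of the cells. At equal depth the shares were 54.5%, 42.6% and 41.7%, and in erythroid-like cells without thinning they were 1.56% and 3.58%. Against all other cells Foxc2 was higher by 2.98 (log2, SE 0.19, adjusted p = 6.21e-05). Foxc1, at 83.8, 81.7 and 70.4 CPM, was higher by 2.10 (SE 0.18, adjusted p = 0.00031), and reached the same range in cranial mesoderm-like cells, at 93.2, 64.1 and 78.9 CPM. Foxl1, which acts in gut mesenchyme later in life, was at 2.96, 2.64 and 2.22 CPM and higher by 2.82 (SE 0.28, adjusted p = 0.000583). Foxd1, a regulator of stroma and retina, and Foxp2, best known from neurons, were higher by 2.30 and 2.27. All 5 calls held without each embryo. Foxd2 (2.32), Foxp1 (0.97) and Foxp4 (0.62) were also higher, and the adjusted p was 0.144 for Foxd2 without embryo 2, 0.0644 for Foxp1 without embryo 3, and 0.0710 and 0.0706 for Foxp4 without embryo 2 and without embryo 3.

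Cranial mesoderm-like cells had the highest mean of Foxl2, Foxd2 and Foxd1 among the lineages. Foxl2, the ovary and eyelid regulator, was at 14.6, 12.0 and 10.1 CPM there, and its next lineage, definitive endoderm-like cells, was at 2.60 CPM with no overlap. It was higher than in other cells by 3.82 (log2, SE 0.23, adjusted p = 2.59e-05). Foxd2 was at 7.96, 4.31 and 2.94 CPM, from 48, 9 and 9 UMIs, and was higher by 3.36 (SE 0.41, adjusted p = 0.00113). Foxd1, at 20.9, 32.5 and 25.2 CPM, was higher by 3.04 (SE 0.21, adjusted p = 6.29e-05). With Foxl1 (2.65), Foxc1 (2.02), Foxc2 (1.96) and Foxp4 (1.03) these calls were kept without each embryo. Foxp2 (1.31), Foxo1 (0.86) and Foxp1 (0.65) each lost theirs without embryo 2 (adjusted p = 0.152, 0.0995 and 0.0769) and without embryo 3 (0.0986, 0.212 and 0.155), and Foxp2 also without embryo 1 (0.196). Foxa2, Foxa3, Foxa1, Foxo4 and Foxf1 were lower, although Foxa1 was not called without embryo 2 or 3 (adjusted p = 0.182 and 0.0734), nor Foxf1 without embryo 1 or 3 (0.179 and 0.290).

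Pharyngeal mesoderm-like cells, gated by Isl1, Tbx1, Fgf10 and Mef2c, had 4 of 33 forkhead genes higher and 6 lower, against 3.12% and 6.89% of all features. The 4 markers summed to between 389 and 518 CPM there and between 501 and 637 CPM in cardiac mesoderm-like cells. Of pharyngeal mesoderm-like cells 24.1% held at least 3 cranial and 29.5% at least 3 paraxial markers. The part of these markers in the forkhead levels was not tested. Foxc2 was at 61.8, 44.4 and 47.3 CPM (1.41, SE 0.19, adjusted p = 0.00152) and Foxp4, a lung and heart factor, at 32.7, 37.2 and 27.0 CPM (1.03, SE 0.12, adjusted p = 0.000683). Foxp2 (1.73) and Foxc1 (1.03) were higher too, but without embryo 3 the adjusted p was 0.0999 and 0.0608, and without embryo 2 it was 0.0906 for Foxc1. In cardiac mesoderm-like cells 1 of 33 genes was higher, Foxp4 by 0.55 (adjusted p = 0.0102), and 6 were lower, beside 6.15% and 6.93% of all features. Foxp4 was not called without embryo 2 (0.0547) or embryo 3 (0.167), and 2 of the 6 lower calls were kept without each embryo.

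Presomitic mesoderm is the tissue from which somites segment. Against all other cells 4 of 33 forkhead genes were higher in presomitic mesoderm-like cells and 8 lower, where 7.13% and 12.2% of all features were called. Foxb1, which marks the posterior neural tube and tail bud, was at 88.3, 80.1 and 63.7 CPM, its highest mean among the lineages, and was higher by 1.74 (log2, SE 0.16, adjusted p = 0.000219). Foxc1 was higher by 1.67 (SE 0.16, adjusted p = 0.000342). Foxc2 (0.84) and Foxn3 (0.31) were higher as well, but were not called without embryo 2 (adjusted p = 0.102 and 0.0689) or embryo 3 (0.125 and 0.213), nor Foxn3 without embryo 1 (0.120).

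Set directly against presomitic mesoderm-like cells, paraxial mesoderm-like cells had 7 of 22 forkhead genes higher and 1 lower, beside 3.28% and 3.76% of all features. Foxp2, at 9.47, 6.37 and 6.25 CPM against 0.888, 1.03 and 1.41 CPM, differed by 2.80 (log2, SE 0.28, adjusted p = 0.000142). Foxc2, at 35.4, 35.3 and 33.4 CPM in presomitic mesoderm-like cells, differed by 1.84 (SE 0.12, adjusted p = 8.63e-06), and Foxp4, at 6.48, 7.39 and 9.20 CPM there, by 1.67 (SE 0.16, adjusted p = 0.000104). Foxb1 was lower, at −1.22 (SE 0.13, adjusted p = 0.000227). These 4 genes kept their calls without each embryo, as did Foxl1 (2.24) and Foxp1 (0.86), whereas Foxd1 (2.21) lost its call without embryo 3 (adjusted p = 0.0561). Foxc1 differed by much less than Foxc2, at 0.44 (SE 0.10, adjusted p = 0.0215), and its call was lost when any embryo was left out, with adjusted p from 0.0579 to 0.192. Of presomitic mesoderm-like cells 52.8% held at least 3 paraxial markers and 53.5% at least 3 caudal epiblast markers. At least 3 presomitic markers were held by 32.3% of paraxial mesoderm-like cells. The part of these markers in the differences was not tested.

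**Figure D3:**
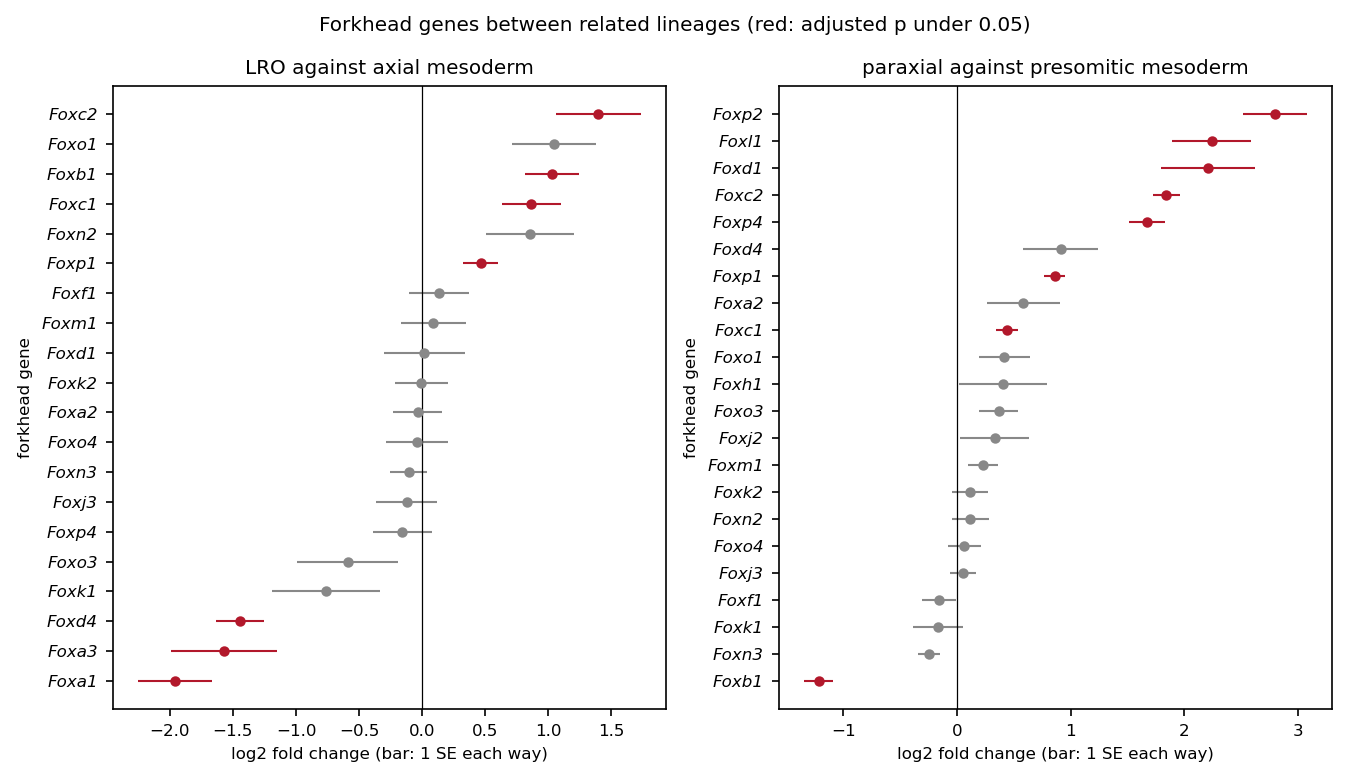
Fitted log2 differences (points, bars ± SE, n = 3 embryos) of the forkhead genes tested, with LRO-like set against axial mesoderm-like cells (left) and between paraxial and presomitic mesoderm-like cells (right), with genes of adjusted p under 0.05 in red. Foxa1 and Foxd4 lie far to the axial side on the left, and on the right Foxp2, Foxl1, Foxd1, Foxc2 and Foxp4 lie to the paraxial side and Foxb1 to the presomitic side.

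The balance of Foxc2 and Foxc1 shifted along these lineages. Their CPM ratio was 0.604 ± 0.0575 (SD, n = 3; range 0.552 to 0.666) in presomitic mesoderm-like cells, 0.968 ± 0.227 in cranial, 1.26 ± 0.0982 in pharyngeal and 1.57 ± 0.209 (range 1.39 to 1.80) in paraxial mesoderm-like cells, and 3.54 ± 0.195 in endothelium-like cells. The ratios of presomitic and paraxial mesoderm-like cells did not overlap between embryos. UMIs of both genes were found in 71.8% ± 9.38 of paraxial mesoderm-like cells, 58.9% ± 16.4 of cranial and 30.0% ± 11.0 of presomitic mesoderm-like cells, at median depths of 22558.5, 23478 and 20073 UMIs. With cells thinned to 5000 UMIs these shares were 19.1% ± 1.94, 12.6% ± 0.786 and 6.23% ± 2.25. Over 56 lineage sums the gene whose level went most closely with Foxc1 among all features was Foxc2 (Pearson r = 0.837 of log2(CPM + 1)), and for Foxc2 they were Col23a1 (0.864), Foxc1 and Foxl1 (0.819). Sums from the same embryo share a library, so these are descriptions.

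Foxf1 and Foxf2 mark lateral plate mesoderm, allantois and later the gut wall. In mesenchyme-like cells, gated by genes such as Hand1 and Postn, 6 of 34 forkhead genes were higher and 8 lower, beside 13.3% and 14.3% of all features. Foxf1 was at 124, 131 and 106 CPM, with a UMI in 85.9%, 81.2% and 80.0% of cells compared with 2.35% and 4.48% in erythroid-like cells. It was higher by 2.47 (log2, SE 0.10, adjusted p = 6.51e-06). Foxf2 was far scarcer, at 7.78, 7.55 and 8.80 CPM, and was higher by 2.54 (SE 0.17, adjusted p = 2.78e-05). Foxq1 (1.63, SE 0.26), at 2.51, 1.97 and 2.82 CPM, kept its call without each embryo as these did. Foxo4 (0.68), Foxk1 (0.58) and Foxn3 (0.42) did not, with adjusted p of 0.0949, 0.135 and 0.0524 without embryo 3 and 0.0907 for Foxk1 without embryo 2.

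Allantois-like cells had 2 of 34 forkhead genes higher and 10 lower, beside 7.61% and 12% of all features. The higher genes were Foxf1, at 145, 104 and 88.7 CPM (2.05, SE 0.15, adjusted p = 3.98e-05), and Foxf2, at 8.90, 6.90 and 7.47 CPM (2.15, SE 0.22, adjusted p = 0.000243). Levels of both genes overlapped those of mesenchyme-like cells. The Foxf2 to Foxf1 ratio was 0.0676 in mesenchyme-like, 0.0706 in allantois-like, 0.0556 in pharyngeal and 0.101 in cardiac mesoderm-like cells. UMIs of both were found in 15.5% ± 3.42 of mesenchyme-like cells, or 2.15% ± 0.854 with cells thinned. The 5 mesenchyme markers summed to between 729 and 789 CPM in allantois-like cells against 1634 to 2028 CPM in mesenchyme-like cells, 74.9% of allantois-like cells had at least 3 of them, and their part in the Foxf levels was not tested.

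Paraxial mesoderm-like and mesenchyme-like cells stood apart in 14 of 24 forkhead genes, with 8 higher in the paraxial lineage and 6 lower, beside 13.6% and 17.4% of all features. Foxc2 was at 7.61, 5.38 and 7.45 CPM in mesenchyme-like cells and differed by 4.15 (log2, SE 0.15, adjusted p = 1.82e-08). Foxc1, at 8.45, 4.14 and 8.39 CPM, differed by 3.44 (SE 0.18, adjusted p = 1.57e-07), and Foxl1 by 3.89 (SE 0.40, adjusted p = 2.25e-05). In the other direction Foxf2 differed by −3.01 (SE 0.23), Foxq1 by −2.70 (SE 0.49), Foxf1 by −2.53 (SE 0.13, adjusted p = 1.4e-07) and Foxo4 by −1.97 (SE 0.12, adjusted p = 5.05e-07). Foxf1 was not absent from paraxial mesoderm-like cells, at 20.3, 25.3 and 17.5 CPM. Foxf1 alone was found in 73.3% ± 0.698 of mesenchyme-like cells and together with Foxc1 in 9.15% ± 3.25, while 22.9% ± 5.02 of paraxial mesoderm-like cells had both. Thinned, the shares with both were 0.888% ± 0.312 and 2.79% ± 1.65. Foxp4 (0.47) and Foxn3 (−0.34) lost their calls without embryo 2 (adjusted p = 0.0986 and 0.0999), Foxn3 also without embryo 1 (0.121), and the other 12 calls were kept.

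These genes lie in clusters. On chromosome 8 Foxf1 (121084386 to 121088144), Foxc2 (121116171 to 121118895) and Foxl1 (121127940 to 121130644, GRCm38) follow each other with 28027 and 9045 bases between them. On chromosome 13 Foxq1 (31556134 to 31560976), Foxf2 (31625816 to 31631403) and Foxc1 (31806633 to 31812476) are spaced by 64840 and 175230 bases. In each cluster the Foxf gene was higher in mesenchyme-like and allantois-like cells and the Foxc gene in paraxial and cranial mesoderm-like cells. Both Foxc genes were also called higher in pharyngeal and presomitic mesoderm-like cells. In paraxial and cranial mesoderm-like cells Foxl1 was called higher together with its neighbour Foxc2, and Foxq1 was higher in mesenchyme-like cells like its neighbour Foxf2. Foxq1 was also higher in both endoderm lineages and in axial mesoderm-like cells, where Foxf2 was not. Its highest mean was in axial mesoderm-like cells, at 4.55 CPM. In allantois-like cells Foxq1 was not called higher, whereas Foxf2 was.

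**Figure D4:**
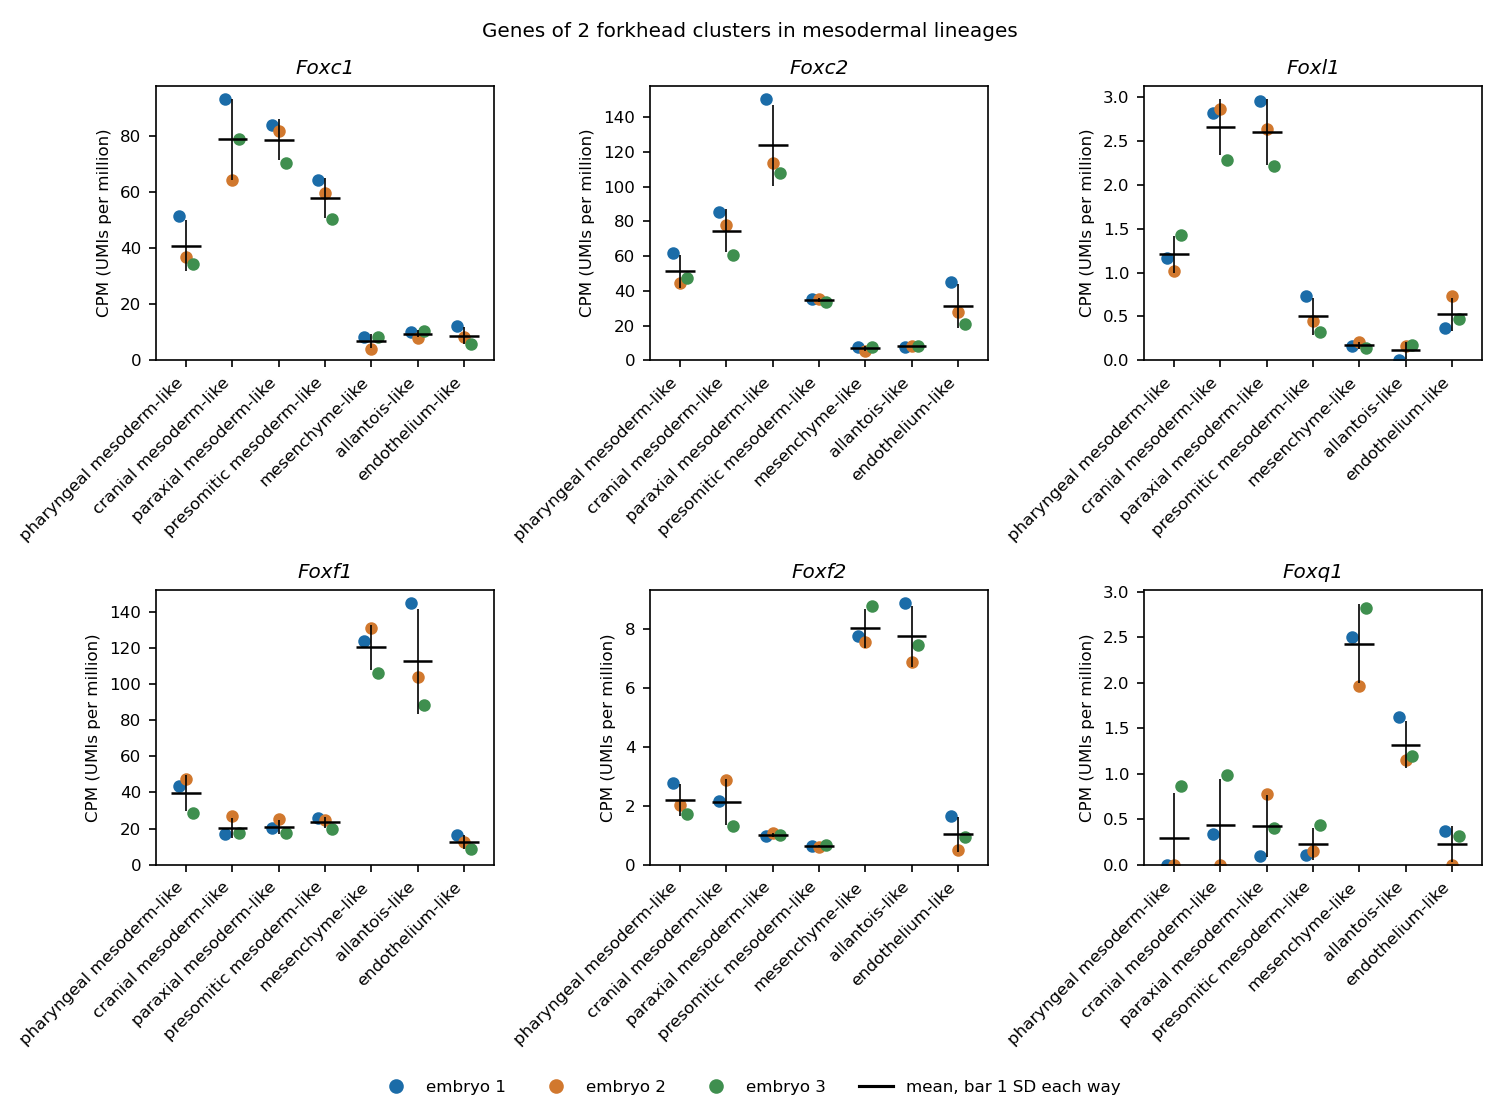
CPM of Foxc1, Foxc2, Foxl1, Foxf1, Foxf2 and Foxq1 in 7 lineages of mesoderm, with 1 point per embryo and a line at the mean (n = 3, error bar SD) and each panel on its own scale. Foxc1, Foxc2 and Foxl1 points are highest in cranial and paraxial mesoderm-like cells, and Foxf1 and Foxf2 points in mesenchyme-like and allantois-like cells.

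FOXO proteins restrain growth when AKT is quiet. In endothelium-like cells 2 of 33 forkhead genes were higher and 11 lower, beside 16.5% and 20.6% of all features. Foxo1, needed for vessel formation, was at 40.9, 28.5 and 27.2 CPM, above the 17.8, 16.5 and 16.8 CPM of LRO-like cells, its next lineage. It was higher than in other cells by 1.87 (log2, SE 0.23, adjusted p = 0.000336), in each fit with an embryo left out too. Foxn2 (0.38) was higher at an adjusted p of 0.0467 and was not called when any embryo was left out (0.0837, 0.0993 and 0.25). Foxc2 was at 45.1, 28.0 and 20.8 CPM in endothelium-like cells, 0.65 above other cells (SE 0.27, adjusted p = 0.089). In erythroid-like cells Foxn2 (0.72) and Foxk2 (0.45) were higher, with 23.4% of all features higher. Foxi3 and Foxl2 had 0 UMIs in 1230 erythroid-like cells, which allows a share of up to 0.244%, and Foxl1 had 0 in 754 definitive endoderm-like cells, which allows up to 0.398%.

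The 3 Foxo genes with over 1000 UMIs differed in the lineage of their highest mean. Foxo4 was highest in extraembryonic endoderm-like cells and Foxo1 in endothelium-like cells, whereas Foxo3 ranged from 3.41 CPM in extraembryonic endoderm-like to 9.59 CPM in PGC-like cells, which 8 other lineages overlapped. Foxo6, with 135 UMIs in all, was called higher in definitive endoderm-like cells alone. Foxo3 was called once, lower in extraembryonic endoderm-like cells, at −0.58 (SE 0.15, adjusted p = 0.00794), a call lost without embryo 2 (adjusted p = 0.0712). Lists of partners and targets are given by their calls against other cells, with every lineage named that had at least 3. Of 190 gene-lineage pairs over 10 PI3K and AKT genes that act on FOXO proteins, 15.8% were higher and 25.8% lower, beside 9.2% and 11.9% over all features. There were 14 such lineages, and higher calls were more than lower ones in extraembryonic endoderm-like (6 and 2), erythroid-like (5 and 4), allantois-like (4 and 2), endothelium-like (4 and 1) and mesenchyme-like cells (3 and 2). In definitive endoderm-like cells 2 were higher and 2 lower. Lower calls were more in anterior neural-like (1 higher and 7 lower), posterior neural-like (1 and 5), cardiac (1 and 4), pharyngeal (0 and 4), cranial (0 and 3) and paraxial mesoderm-like (0 and 3), caudal epiblast-like (2 and 3) and surface ectoderm-like cells (1 and 2). In extraembryonic endoderm-like cells 33.7% of all features were higher and 37.4% lower, in erythroid-like cells 23.4% and 32.3%, and in endothelium-like cells 16.5% and 20.6%.

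Of 190 pairs over 10 known FoxO target genes 12.1% were higher and 12.6% lower. The 7 lineages with at least 3 calls were LRO-like (3 higher and 0 lower, median log2 difference 0.40 beside −0.06 over all features), endothelium-like (3 and 1), mesenchyme-like (3 and 2), paraxial mesoderm-like (1 and 2), extraembryonic endoderm-like (1 and 4), erythroid-like (1 and 7) and caudal epiblast-like cells (0 and 3). Axial mesoderm-like cells fell short of 3 calls (2 higher and 0 lower), with a median of 0.43 beside −0.06 over all features. With LRO-like cells set directly against that lineage, 1 of 8 targets was higher and 0 lower. The median of that test was −0.08 beside −0.01 over all features. In the lineages with most Foxo4 and most Foxo1, extraembryonic endoderm-like and endothelium-like cells, the median of the targets was −0.29 and −0.12, beside −0.09 and −0.08 over all features.

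**Figure D5:**
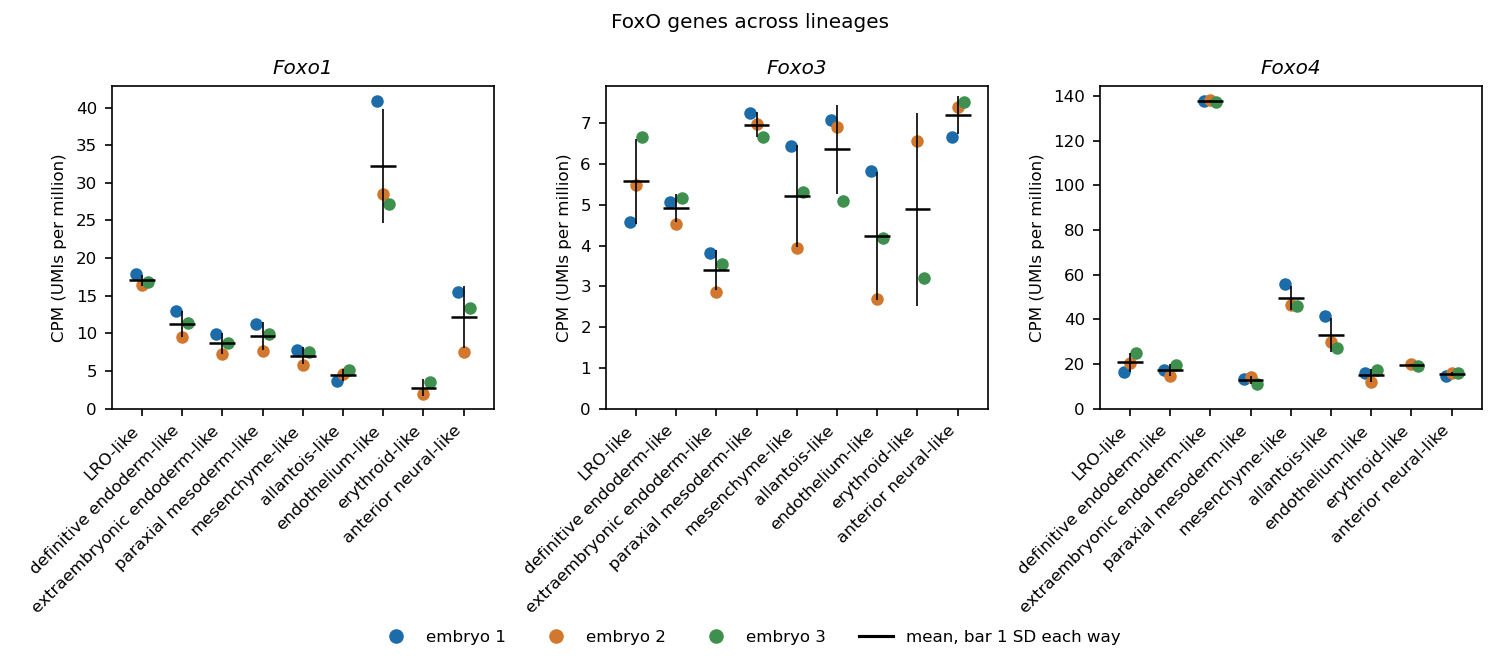
CPM of Foxo1, Foxo3 and Foxo4 in 9 of the lineages, with 1 point per embryo and a line at the mean (n = 3, error bar SD; n = 2 for erythroid-like cells). Foxo4 is at 138 CPM in each embryo's extraembryonic endoderm-like cells, and Foxo1 is highest in endothelium-like cells.

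In the neural plate more forkhead genes were called lower than higher. Anterior neural-like cells had 1 of 35 higher and 8 lower, beside 6.47% and 10.3% of all features, and posterior neural-like cells 2 of 33 higher and 8 lower, beside 4.03% and 8.97%. Foxd4 was at 34.2, 39.8 and 30.4 CPM in anterior neural-like cells, with a UMI in 57.0%, 56.6% and 47.0% of them, and was higher by 3.38 (log2, SE 0.13, adjusted p = 8.97e-06). In erythroid-like cells 0.67% and 1.19% had a Foxd4 UMI. Foxb1 was at 75.5, 68.8 and 70.9 CPM in posterior neural-like cells and was higher by 1.46 (SE 0.16, adjusted p = 0.00074). Both calls held without each embryo. Most lower calls did not, since 1 of 8 in anterior neural-like and 2 of 8 in posterior neural-like cells were kept. Foxi2 was called higher in posterior neural-like cells (adjusted p = 0.0398) on 7, 6 and 0 UMIs, in 2 of 3 embryos, and lost the call without embryo 1 (adjusted p = 0.131) or 2 (0.314).

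Between the ends of the neural plate 1 of 19 forkhead genes was higher in anterior neural-like cells and 1 lower, beside 0.338% and 0.457% of all features. Foxd4 differed by 3.43 (log2, SE 0.28, adjusted p = 6.11e-05), and its posterior values were 1.84, 5.97 and 2.29 CPM. Foxb1 differed by −1.67 (SE 0.10, adjusted p = 3.55e-06), with anterior values of 24.3, 22.2 and 20.5 CPM. Neither gene overlapped between the ends, and both calls were kept in every fit with an embryo left out.

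Foxb1 was also higher in caudal epiblast-like cells, the source of spinal cord and tail mesoderm, at 50.5, 55.2 and 51.6 CPM (1.04, SE 0.16, adjusted p = 0.00216). It was the only higher forkhead gene of 33 there, where 6.47% of all features were higher, and 16 were lower, where 13.2% were. Of the 16 lower calls 10 were kept without each embryo. The median difference of the forkhead genes in this lineage was −0.98, beside −0.01 over all features. In 4 of 19 lineages Foxb1 was higher, namely presomitic mesoderm-like, posterior neural-like, caudal epiblast-like and LRO-like cells. The gene whose level followed it most closely over 56 lineage sums was Ddit4 (r = 0.914).

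Surface ectoderm-like cells had 1 of 34 forkhead genes higher and 10 lower, beside 3.13% and 5.15% of all features. Of the 10 lower calls 2 were kept without each embryo. Foxp1, at 151, 112 and 123 CPM, was higher by 0.71 (log2, SE 0.15, adjusted p = 0.0172), a call lost without embryo 3 (adjusted p = 0.140). Against anterior neural-like cells 1 of 18 genes was higher and 3 lower, beside 6.02% and 4.98% of all features. With the embryo as a block 8 genes were called in place of 4. Foxd4 differed by −4.59 (SE 0.27, adjusted p = 2.89e-07), at 1.94, 0.464 and 1.31 CPM in surface ectoderm-like cells, and Foxa2 by −3.21 (SE 0.43, adjusted p = 0.000268), at 0.968, 1.86 and 0.435 CPM against 10.6, 12.1 and 6.05 CPM. Foxp1 differed by 0.72 (SE 0.12, adjusted p = 0.00105). Foxb1 (−0.81) was not called without embryo 1 (adjusted p = 0.155) or 2 (0.0779).

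In the 2 scarcest lineages few or no forkhead genes were called. Neural border-like cells had 0 of 32 higher and 0 lower by edgeR and by DESeq2, with 0.0721% and 0.203% of all features called, and at an unadjusted p under 0.05 they had 1 higher and 7 lower. PGC-like cells had 0 of 32 higher by either tool, with 2.69% of all features higher and 1 forkhead gene at an unadjusted p under 0.05. Foxf1 (−1.48) and Foxc2 (−2.47) were lower there, beside 1.93% of all features. Both calls were lost without embryo 1 (adjusted p = 0.103 and 0.0512) and without embryo 3 (0.456 and 0.0943). Neural border-like cells had a median of 32647.5 UMIs and 11.1% of them had top doublet scores. Foxd3, a neural crest regulator, was found in 2, 6 and 0 of 123, 127 and 93 posterior neural-like cells, and the 95% exact binomial intervals of the first 2 embryos run from 0.198% to 5.75% and from 1.75% to 10.0%. Foxh1, the NODAL-pathway partner of SMAD proteins, had its highest mean in PGC-like cells, at 3.94 ± 2.72 CPM, but from 1, 2 and 3 UMIs.

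Foxp1, Foxp4, Foxn3, Foxm1, Foxj3 and Foxk2 had UMIs in every lineage. That did not set them apart, since more restricted genes such as Foxa2 and Foxf1 did too. The lowest means of Foxa2 and Foxf1 were 1.09 CPM in surface ectoderm-like and 2.22 CPM in erythroid-like cells. Foxp1 ranged from 12.5 ± 3.64 CPM in erythroid-like cells to 154 ± 26.3 CPM in LRO-like cells. Foxp4 was highest in pharyngeal mesoderm-like (32.3 ± 5.15 CPM), cranial mesoderm-like (31.6) and definitive endoderm-like cells (30.6), and those lineages overlapped. Foxn3 had its highest mean in mesenchyme-like cells, at 80.2 ± 7.36 CPM, and 4 other lineages overlapped it. Foxm1, a driver of mitotic genes, ranged from 8.78 CPM in erythroid-like to 23.8 ± 5.93 CPM in neural border-like cells, Foxj3 from 10.2 to 21.5 CPM, and Foxk2 from 15.2 CPM in extraembryonic endoderm-like to 27.1 CPM in allantois-like cells. The highest lineage was overlapped by 12 others for Foxm1, 5 for Foxj3 and 13 for Foxk2. Foxk1 and Foxj2 had their highest means in extraembryonic endoderm-like cells, at 10.3 and 4.39 CPM, overlapped by 9 and 3 other lineages.

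For genes called higher in some lineage, the features with the most similar level over the 56 lineage sums were listed. Foxa1 went most closely with Prss1 (r = 0.944 of log2(CPM + 1)), Foxa3 with Kif12 (r = 0.943), Foxa2 with Cpn1 (r = 0.902), Foxp1 with Bcl9 (r = 0.887), Foxf2 with Col1a1 (r = 0.861), Foxd4 with Calca (r = 0.840), Foxo4 with Rab17 (r = 0.833) and Foxf1 with Rubie (r = 0.823). The best match of Foxn3 reached r = 0.535, the lowest of these genes.

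Other partners and targets were counted in the same way, beside 9.2% of pairs higher and 11.9% lower over all features. Of 190 pairs over 10 mitotic genes under FOXM1 control 9.47% were higher and 11.1% lower. The 5 lineages with at least 3 calls were erythroid-like (7 higher and 1 lower, where 23.4% and 32.3% of all features were), extraembryonic endoderm-like (2 and 6, where 33.7% and 37.4% were), LRO-like (0 and 6, where 11.5% and 6.23% were), definitive endoderm-like (0 and 3) and endothelium-like cells (1 and 2). The median of the list in LRO-like cells was −0.47 beside −0.06 over all features. In axial mesoderm-like cells the median was −0.32 beside −0.06, with 0 genes higher and 1 lower. Tested directly against that lineage, LRO-like cells had 0 of 9 genes of the list called. The median of that test was −0.24 beside −0.01 over all features. Foxm1 itself was lower in erythroid-like cells, at −0.59 (log2, SE 0.15, adjusted p = 0.0117). After thinning, a Foxm1 UMI was found in 8.16% ± 0.972 (SD, n = 3) of cells with a UMI of the proliferation gene Mki67 and in 7.62% ± 0.355 of those without, a ratio of 1.07 ± 0.0957. Embryo 2 went the other way, at 7.20% and 7.49%. The ratio was 1.09 for Foxk2, 1.08 for Foxj3, 1.04 for Foxn3 and 1.02 for Foxp1. At this depth 54.9% of cells had an Mki67 UMI, and a cell without one cannot be called non-dividing. Of 114 pairs over 6 Groucho/TLE corepressors, which FOXA and FOXD proteins can recruit, 25.4% were higher and 21.9% lower. They were higher without a lower call in LRO-like (5, where 11.5% of all features were higher), axial mesoderm-like (4, where 4.78% were), definitive endoderm-like (4, where 15.5% were), anterior neural-like (3) and surface ectoderm-like cells (3). Caudal epiblast-like cells had 3 higher and 1 lower, and extraembryonic endoderm-like cells 2 higher and 2 lower. Lower calls were more in erythroid-like (0 and 6), mesenchyme-like (1 and 5), endothelium-like (0 and 3) and allantois-like cells (1 and 2). Of 133 pairs over 7 SMAD partners of FOXH1 and FOXO proteins 12.0% were higher and 9.77% lower. Their 5 lineages were paraxial mesoderm-like (3 higher and 0 lower), presomitic mesoderm-like (2 and 1), endothelium-like (2 and 2), extraembryonic endoderm-like (0 and 4) and erythroid-like cells (0 and 4).

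The remaining genes were near the limit of detection. Foxr2, Foxi2, Foxo6, Foxn4, Foxi3 and Foxr1 had between 60 and 156 UMIs in all. Foxi3 had 6, 0 and 3 UMIs in surface ectoderm-like cells. Genes under 50 UMIs included Foxd3 (48), Foxe1 (19), Foxp3 (5), Foxb2 (5), Foxs1 (3), Foxn1 (2), and Foxe3 and Foxi1 with 0. For Foxi1, 0 UMIs allow, at a limit of 3 counts over the cells of an embryo, a share of cells with a UMI of up to 0.0518%, 0.0377% and 0.0382% in embryos 1, 2 and 3. Intervals and limits of this kind cover counting error only.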

How the data were processed

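Libraries were 10x Genomics droplet libraries of 3 dissociated embryos, 1 library each. The authors aligned the reads and counted UMIs per gene and barcode with Cell Ranger 3.1.0 on mm10 with EGFP added, and deposited these counts as 1 filtered matrix per embryo (6579, 8621 and 8333 barcodes). A total of 0 columns was left unused. The members and gene lists were chosen with earlier results of these data known.

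Barcodes were kept with 1500 to 8500 genes (7500 in embryo 2) and at most 10% mitochondrial UMIs, as in the study's methods, and 334, 160 and 79 further barcodes under 0.5% mitochondrial UMIs were left out in place of the clusters the study removed. Kept cells held 191843539, 144790573 and 165506028 UMIs. Levels were log-normalized to 10000 UMIs and standardized, and a cell was placed in the lineage with the highest mean over its markers if that mean was at least 0.75, led the next list by 0.25 and had 3 markers with a UMI. Lineages were rebuilt here, so their shares may differ from the study's clusters. Libraries shared 22, 18 and 19 barcodes pairwise (57 in at least 2 libraries). Scrublet (scanpy 1.11.5) by its own threshold called 1, 9 and 189 doublets, which is too few to use, so dropping the top 6% of scores was run as an alternative.

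UMIs were summed per lineage and embryo, leaving out sums of under 10 cells, and fitted with edgeR 4.0.16 in R 4.3.3 (glmQLFit and glmQLFTest, TMM, filterByExpr, Benjamini-Hochberg over all features tested, threshold 0.05) in 26 comparisons. DESeq2 1.42.0 served as an alternative, and edgeR ran on limma 3.58.1. On simulated counts 67.0% of 4-fold changes were recovered for LRO-like cells against the rest (15554 genes) and 99.0% for paraxial mesoderm against mesenchyme (11990 genes). The replicate number names the embryo, so sums of the same number come from the same animal, and their deviations from the group means correlated at between 0.00681 and 0.522. Genes named are members with at least 50 UMIs, members called in a comparison, genes of the marker and pathway lists, and the 3 features of highest Pearson r with a member called higher. Genes under 50 UMIs are given by counts, and 1 gene is not reported here. Alternatives were 11 settings, among them thinning each cell to 5000 UMIs (112 cells were shallower). Intervals are at 95%.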

Additional observations from a re-analysis of the deposited data

Results flagged for a closer look

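Foxo6os, a transcript near Foxo6 on the other strand (chromosome 4, 120291350 to 120303892, plus strand), was left out of the gene set by its name, and it had UMIs all the same. Foxo6 spans 120267079 to 120287349 on the minus strand, so the annotated spans do not overlap. Embryo 1 had 7 UMIs in 7 of its 5795 cells, a share of 0.121% and above the 0.0518% that 3 counts would give. Embryos 2 and 3 had 2 and 3 UMIs. Foxo6 itself had 59, 41 and 35 UMIs in the 3 embryos, and 0 cells had UMIs of both. What gave these UMIs was not tested.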

How the results depend on the processing

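Of the 278 calls of single forkhead genes, 165 kept direction and threshold under each of the 11 alternatives that could be fitted, and none turned direction. A call that could not be tested under an alternative was not counted against it. With cells thinned to 5000 UMIs 193 calls were kept and 60 lost, and the other calls could not be tested at that depth. The number lost was 37 with lineages set by the number of markers detected, 11 with DESeq2 and 7 without the highest doublet scores. It was 4 without a filter on low counts, 3 with RLE factors and 1 with barcodes nearly lacking mitochondrial UMIs kept. Leaving out embryo 1, 2 or 3 lost 45, 73 and 77 and kept 232, 184 and 180. Over all lineages the 74 higher pairs became 52 to 72 without 1 embryo and the 153 lower pairs 85 to 126. Erythroid-like cells, with 2 higher and 19 lower calls, could not be fitted without embryo 2 or 3. Their pairs are absent from those counts, so the drop is not one of lost calls alone. LRO-like against axial mesoderm-like cells had 7 calls, 4 with DESeq2, 3 by number of markers, 2 thinned and 2 to 6 without 1 embryo (2 without embryo 2). Foregut-like against hindgut-like cells had 2 calls, 1 with DESeq2, 0 by number of markers, 0 thinned and 0 to 2 without 1 embryo. Definitive against extraembryonic endoderm-like cells had 14 calls, and 7 thinned. Surface ectoderm-like against anterior neural-like cells had 4 calls, 8 without a filter and 2 thinned. Thinning and leaving out embryos leave fewer UMIs or samples, and for the other settings the cause was not tested.

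With the embryo as a replicate block the pairs called were 94 higher and 197 lower, and the calls were 7 between the LRO-like and axial lineages, 14 for the endoderm lineages, 3 for foregut-like against hindgut-like, 10 for paraxial against presomitic mesoderm-like, 15 for paraxial mesoderm-like against mesenchyme-like, 3 for anterior against posterior neural-like and 8 for surface ectoderm-like against anterior neural-like cells. The block ended 2 calls, Foxi3 and Foxl1 in erythroid-like cells, and turned none.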
